A study of Mus musculus with 14 samples.

Results

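The genes described here are a list of 33 genes of cholesterol synthesis, uptake and efflux, taken by name for their roles in the pathway. The list was chosen with earlier results of these data known. Shares and medians over all genes are thus set beside it as a description, not as a test of the list. The genes were read in 14 RNA sequencing libraries of αTN4-1, a lens epithelial line that was derived from transgenic mice and carries a viral T antigen. Of the 33 genes, 30 had a mean of at least 1 TPM (a transcript level scaled for gene length and library size), and these are the members tested, among 12927 genes tested of 40853 gene identifiers. The lowest tested member was Mylip, with a mean of 34.6 TPM, and the highest member below the limit was Nr1h3, with a mean of 0.489 TPM. Abca1 and Abcg1 also lay below it.

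There were 7 lines, all αTN4-1 grown under neomycin selection, with 1 control and 1 TGFβ library each. The line labelled Vector carries no CREB construct. The lines labelled WT-CREB, R314A-CREB and KCREB carry CREB, the factor that acts at cAMP response elements of DNA, as the wild type, with R314A in its leucine zipper, which is known to impair binding of the CRTC coactivators, or as a form known not to bind DNA. The lines labelled S133A-CREB, S133A/R314A-CREB and S133A-KCREB have the same 3 forms with S133A, in which the serine phosphorylated by protein kinase A is lost. Treated cells received TGFβ at 20 ng/mL for 24 h in medium without serum. Whether serum was withheld from the control cells too is not in the labels, so the effects of TGFβ and of serum loss cannot be told apart. They also do not say whether a line is 1 clone, and no line and treatment has a replicate library, so the lines are the replicates.

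Cholesterol is built from acetyl-CoA through mevalonate, squalene and lanosterol. When sterol in the endoplasmic reticulum is low, SCAP carries the SREBP transcription factors to the Golgi, where they are cut and released to the nucleus, and INSIG proteins hold them back when sterol is high. SREBP2 drives nearly all synthesis enzymes, and the LXR receptors, which respond to oxysterols, drive efflux genes. Lens cells are known for membranes rich in cholesterol.

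Creb1, the gene of the overexpressed protein, was between 4.43 and 38.3 TPM over all libraries. It was lower than in the line labelled Vector (20.8 TPM in control, 23.1 with TGFβ) in 4 of the 6 lines labelled for a CREB construct, and higher only in those labelled KCREB and S133A-KCREB. These values go against 4 labels, so all lines are named here by what they are labelled. The sequence of the constructs is not given in the sources used here, so whether their transcripts were counted under Creb1 is not known. Library depth is not recorded in the tables, and the ratio of coverage to FPKM, which follows it, ran from 5.03 to 10.1. Of 10 lens epithelium markers, 7 had a mean of at least 1 TPM, with Pax6 at 54.4 to 328 TPM, whereas Foxe3, Cdh1 and Gja1 were at or near 0. The summed level of that list ran from 571 to 2260 TPM in control and from 455 to 874 TPM in TGFβ libraries. Macrophage markers, of which 4 of 7 reached a mean of 1 TPM, summed to 29.5 to 93.2 TPM in control and 18.6 to 52.3 TPM in TGFβ libraries, mostly Lyz2, and Adgre1 was at 0 in all 14 libraries. Lists for endothelium, neuron, skeletal muscle and hepatocyte each had 1 marker with a mean of at least 1 TPM (Esam, Tubb3, Des and Cyp7a1). Des had a mean of 15.5 TPM, and Tubb3 reached 7.31 TPM in control and 71.0 TPM in TGFβ libraries. The part of these markers in the results was not tested. In bulk RNA, fewer cells of a type and less RNA per cell cannot be told apart.

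The promoters of 27 of the 33 genes were found in a RefSeq table on GRCm38.p6, a build other than the GRCm39 of the expression tables. Each window holds 250 bases before and 50 bases after a start site. The sequences below are shown with a view to the letters to which SREBP and its partner NF-Y are known to bind. They belong to Mvk, Lss and Hmgcs1, the 3 members with the largest falls after TGFβ, and to Msmo1. Acat2 is added as the matched SREBP-driven gene that lacks an NF-Y box, and Mylip from the LXR side. Of the genes shown, Hmgcs1 alone carries the exact letters sought for SREBP, and Acat2 carries neither set. Capitals mark the sterol regulatory element TCACNCCAC and the NF-Y box CCAAT on either strand (ATTGG is the box on the opposite strand), and each run reads 5′ to 3′ on the strand of the gene.
Hmgcs1 (chr13:119690101-119690400, plus strand): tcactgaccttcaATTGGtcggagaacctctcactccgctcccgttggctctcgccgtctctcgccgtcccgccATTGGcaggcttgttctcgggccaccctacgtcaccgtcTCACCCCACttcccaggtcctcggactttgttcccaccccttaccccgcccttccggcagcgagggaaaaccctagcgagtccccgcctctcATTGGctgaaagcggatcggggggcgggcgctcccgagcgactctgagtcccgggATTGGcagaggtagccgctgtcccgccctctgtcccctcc
Mvk (chr5:114444019-114444318, plus strand): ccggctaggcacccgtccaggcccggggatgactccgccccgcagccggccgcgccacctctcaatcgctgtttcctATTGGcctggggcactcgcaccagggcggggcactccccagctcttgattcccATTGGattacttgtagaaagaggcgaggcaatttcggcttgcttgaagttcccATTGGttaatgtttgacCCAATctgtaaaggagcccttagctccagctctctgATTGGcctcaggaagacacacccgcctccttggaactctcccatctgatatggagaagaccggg
Lss (chr10:76531355-76531654, plus strand): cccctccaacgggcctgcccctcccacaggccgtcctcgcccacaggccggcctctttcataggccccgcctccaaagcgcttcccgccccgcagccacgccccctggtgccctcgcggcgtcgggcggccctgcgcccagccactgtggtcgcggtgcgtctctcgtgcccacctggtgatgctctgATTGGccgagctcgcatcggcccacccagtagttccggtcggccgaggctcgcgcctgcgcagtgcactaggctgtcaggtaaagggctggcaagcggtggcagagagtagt
Msmo1 (chr8:64733529-64733828, minus strand): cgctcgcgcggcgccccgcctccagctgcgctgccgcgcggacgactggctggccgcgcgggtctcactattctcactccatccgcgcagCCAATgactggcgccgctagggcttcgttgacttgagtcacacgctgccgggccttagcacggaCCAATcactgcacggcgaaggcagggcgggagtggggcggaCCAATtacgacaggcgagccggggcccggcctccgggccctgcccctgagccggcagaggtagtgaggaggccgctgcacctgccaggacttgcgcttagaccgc
Acat2 (chr17:12960676-12960975, minus strand): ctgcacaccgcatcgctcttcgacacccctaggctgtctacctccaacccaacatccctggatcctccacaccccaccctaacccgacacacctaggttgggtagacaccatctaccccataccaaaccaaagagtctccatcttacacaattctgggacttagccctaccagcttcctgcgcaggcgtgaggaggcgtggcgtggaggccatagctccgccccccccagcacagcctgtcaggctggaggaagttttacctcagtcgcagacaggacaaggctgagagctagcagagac
Mylip (chr13:45389492-45389791, plus strand): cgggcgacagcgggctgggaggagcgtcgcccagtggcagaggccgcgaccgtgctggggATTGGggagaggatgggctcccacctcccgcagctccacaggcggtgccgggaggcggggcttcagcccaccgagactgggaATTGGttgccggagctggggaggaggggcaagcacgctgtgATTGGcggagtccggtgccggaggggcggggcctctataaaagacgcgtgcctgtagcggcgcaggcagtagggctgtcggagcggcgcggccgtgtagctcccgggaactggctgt

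Hmgcs1 is the one matched member with an exact sterol regulatory element, TCACCCCAC, which begins 137 bases before its start site, against 1.32% of the 9918 tested genes with a promoter in the table. A gene counts as holding a motif if any of its windows does. Mvk has 5 NF-Y boxes and Lss 1. An NF-Y box stood in 16 of the 17 matched SREBP-driven genes, or 94.1%, against 44.1% of the matched tested genes and 37.4% of all 32851 promoters of this length. At least 3 boxes stood in 5 of the 17 (Hmgcs1, Mvk, Msmo1, Nsdhl and Hsd17b7), or 29.4%, against 6.26% of matched tested genes. Mylip also has 3 boxes.

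The Sp1 box GGGCGG was in 16 of the 17 SREBP-driven genes, against 67.8% of matched tested genes. The full cAMP response element TGACGTCA was in none of the 27 matched members, against 3.6% of matched tested genes. Its shorter form TGACG, which lies within the full one, was in 8 of 17, or 47.1%, against 35.6%. The SMAD box CAGAC was in 9 of 17, or 52.9%, against 52.1%. The LXR element DR4, sought only as an exact direct pair of AGGTCA, was in no matched member and in 0.0% of matched tested genes. In this strict form it stood in 5 of all 32851 promoters, so its absence from the members carries no information. The single site AGGTCA, of which DR4 holds a pair, was in 3 of the 17 SREBP-driven genes, or 17.6%, and in none of the 3 matched LXR-driven genes, against 14.8% of matched tested genes. Windows of this length leave out more distant elements, and letters that match are a description only.

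The comparison of TGFβ with control asks how the pathway's transcripts differ after TGFβ, over the 7 differences within lines. Transcripts of 22 of the 30 tested members fell and those of 0 rose, where 21.4% of all genes tested fell and 24.1% rose. The median change of the members was -0.41 on the log2(TPM + 1) scale, beside 0.02 over all genes tested. By role, 16 of the 19 synthesis enzymes fell, 4 of the 5 genes of SREBP control, 1 of the 4 genes of transport and storage, and 1 of the 2 tested genes of LXR and efflux. Members lower in all 7 lines numbered 16, against 15.9% of all genes tested. As the list was chosen with earlier results known, these counts and medians describe it and do not test it.

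**Figure D1:**
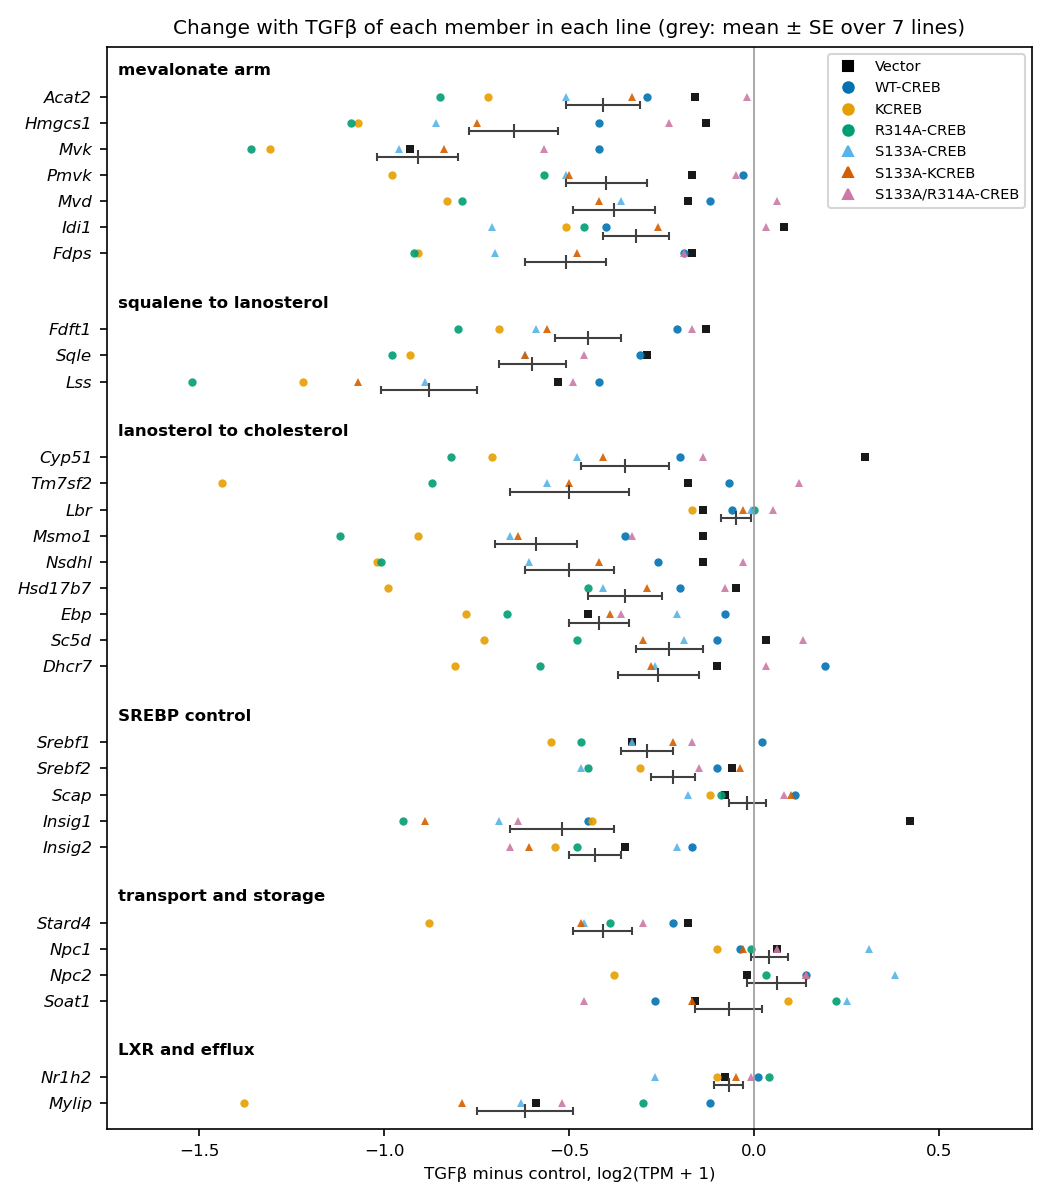
TGFβ minus control on the log2(TPM + 1) scale (horizontal) for the 30 tested members, grouped by role. Coloured points are the 7 lines, and grey bars the mean over lines ± the SE from the moderated linear model limma. That SE is drawn toward the spread of genes of like level. Mvk and Lss have the lowest means, -0.91 and -0.88, and the points of the lines labelled KCREB and R314A-CREB lie farthest left for most enzymes.

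In the mevalonate arm, which makes the isoprenoid units, 7 of 7 members fell. Mvk (chr5:114582324-114598652 on GRCm39), the kinase that phosphorylates mevalonate, was at 95.4, 134 and 199.7 TPM (lowest, median and highest) in the 7 control libraries. It was at 66.6, 70.9 and 94.5 TPM in the 7 TGFβ libraries. All 7 TGFβ libraries lay below all 7 control libraries, which no other member showed and 0.905% of all genes tested did. The change of Mvk was -0.91 ± 0.11 (SE from the moderated linear model limma over 7 lines, adjusted p = 0.000379). That SE, given after ± for changes and differences below, is drawn toward the spread of genes of like level. It can thus differ from the plain SE of the 7 line differences.

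Hmgcs1, which joins acetoacetyl-CoA and acetyl-CoA, changed by -0.65 ± 0.12 (adjusted p = 0.00274), from a mean of 769.8 ± 167 TPM (SD, n = 7) to 496 ± 147 TPM. Fdps, the farnesyl diphosphate synthase and the most abundant enzyme of the pathway here, changed by -0.51 ± 0.11 (adjusted p = 0.00469). The cytosolic thiolase Acat2 changed by -0.41, Pmvk, which adds the second phosphate, by -0.40, and the decarboxylase Mvd by -0.38. Idi1, the isomerase of the isoprenoid units, changed least, by -0.32 ± 0.09 (adjusted p = 0.0196). It ran over 116, 149.7 and 192 TPM in control and over 70.6, 123 and 159 TPM in TGFβ libraries, which overlap widely. Leaving out the line labelled KCREB or R314A-CREB ended the call of Idi1 (adjusted p = 0.0514 and 0.0512).

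From squalene to lanosterol, 3 of 3 members fell. Lss (chr10:76367303-76392973 on GRCm39), which closes the sterol ring, was at 128, 174 and 229 TPM in control and at 60.8, 86.7 and 152 TPM in TGFβ libraries. It was lower in each line, although the groups overlap, and changed by -0.88 ± 0.13 (adjusted p = 0.000892). Sqle, the oxygenase that makes squalene epoxide, changed by -0.60 ± 0.09 (adjusted p = 0.000907). Fdft1, the squalene synthase at the entry to the sterol branch, was at 131, 172 and 184 TPM in control and at 98.5, 107 and 168 TPM with TGFβ. Its change was -0.45 ± 0.09 (adjusted p = 0.00329), and it too was lower in all 7 lines.

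From lanosterol to cholesterol, 6 of 9 members fell. Msmo1, which begins removal of the methyl groups at carbon 4, was at 406, 597 and 931 TPM in control and at 256, 436 and 789 TPM in TGFβ libraries. Its change was -0.59 ± 0.11 (adjusted p = 0.00247), lower in 7 of 7 lines with overlapping groups. Nsdhl, of the same demethylation complex, changed by -0.50 and Hsd17b7, another component, by -0.35. The isomerase Ebp changed by -0.42 (adjusted p = 0.00275).

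Tm7sf2, a sterol C14 reductase, changed by -0.50 ± 0.16 (adjusted p = 0.031), and the lanosterol demethylase Cyp51 by -0.35 ± 0.12 (adjusted p = 0.0355). These calls depended on lines. Without R314A-CREB, S133A-CREB or S133A-KCREB, the adjusted p of Tm7sf2 was 0.0789, 0.0612 or 0.0636. Without KCREB, R314A-CREB, S133A-CREB or S133A-KCREB, that of Cyp51 was 0.0903, 0.0895, 0.0771 or 0.0771. In the line labelled Vector, Cyp51 was higher with TGFβ, at 283 TPM against 229 TPM.

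Sc5d, Dhcr7 and Lbr did not pass. Sc5d, the desaturase before the last step, changed by -0.23 (95% interval -0.45 to -0.02, adjusted p = 0.069). Dhcr7, the reductase of 7-dehydrocholesterol, changed by -0.26 (95% interval -0.50 to -0.02, adjusted p = 0.0772). Single lines moved both values. Sc5d was at -0.30 without the line labelled S133A/R314A-CREB (adjusted p = 0.0362) and at -0.15 without KCREB (adjusted p = 0.151). Dhcr7 was at -0.33 without WT-CREB (adjusted p = 0.0277) and at -0.17 without KCREB (adjusted p = 0.175). Lbr, a lamin-binding protein of the nuclear envelope that is also a C14 reductase, was at 91.2, 97.7 and 123 TPM in control and at 87.6, 95.6 and 111 TPM with TGFβ, with a change of -0.05 (95% interval -0.14 to 0.04). The range of Lbr was narrow and nearly the same in both groups.

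**Figure D2:**
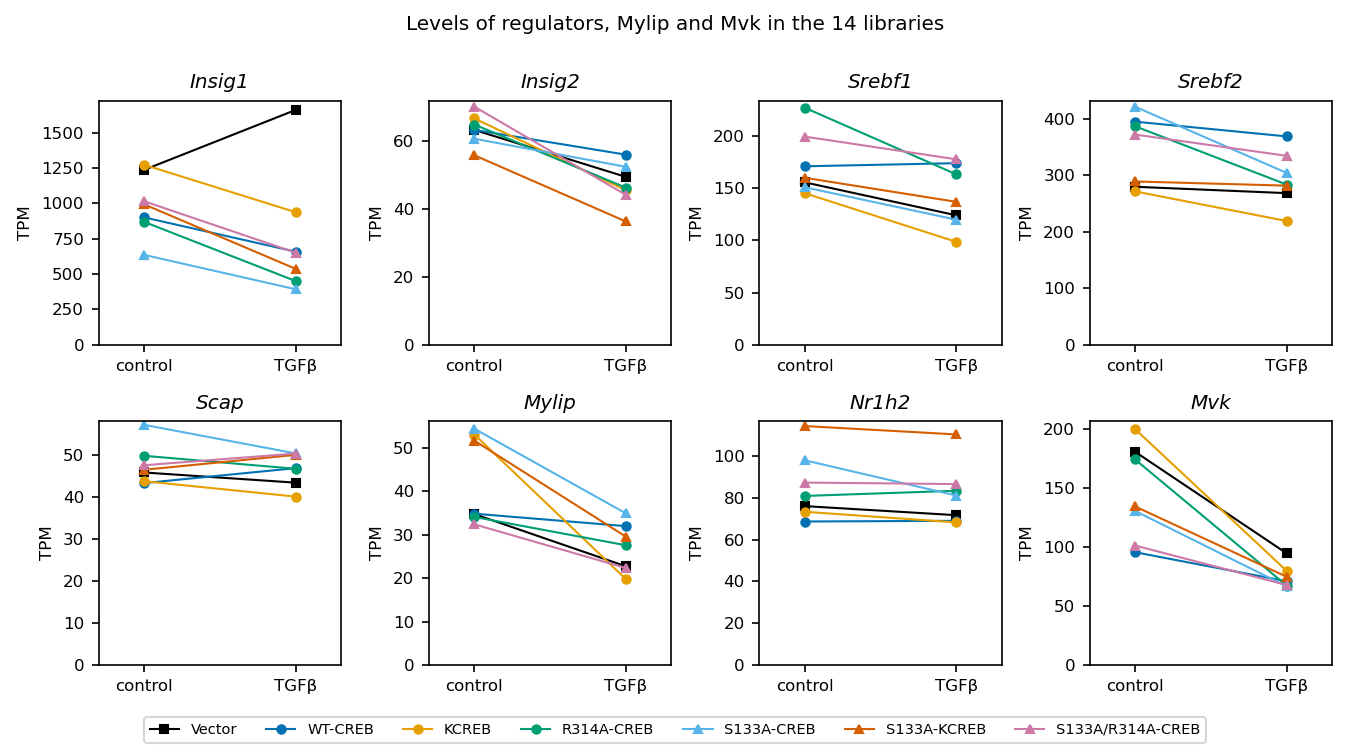
TPM (vertical, from 0) of 7 regulators or LXR-side members and Mvk in control and TGFβ libraries, with 1 point per library and a line joining the libraries of each line. Insig2 and Mvk go down in each line, Insig1 goes up from 1237 to 1661 TPM in Vector alone, and the lines of Scap and Nr1h2 cross or run level.

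Of the 5 genes of SREBP control, 4 fell. Insig1, a retention protein and itself an SREBP target, was the most abundant of them, at 636, 993 and 1273 TPM in control and at 392, 651 and 1661 TPM with TGFβ. It was lower in 6 lines and higher in the line labelled Vector, from 1237 to 1661 TPM. Its change over all lines was -0.52 ± 0.14 (adjusted p = 0.0154). The call was lost with no filter on low genes (adjusted p = 0.0613) and in Vector and the 2 CREB lines with more Creb1 than Vector (-0.30, adjusted p = 0.39). Insig2, the retention protein not driven by SREBP, was at 55.7, 63.2 and 70.0 TPM in control and at 36.2, 46.2 and 55.9 TPM with TGFβ. The groups of Insig2 touch only at their edges, and it changed by -0.43 ± 0.07 (adjusted p = 0.0011).

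Srebf2, which encodes the SREBP of cholesterol synthesis, was at 272, 372 and 422 TPM in control and at 219, 284 and 369 TPM with TGFβ. It was lower in each line by a small amount and changed by -0.22 ± 0.06 (adjusted p = 0.0175). Its call was lost in the same settings as that of Insig1 (adjusted p = 0.0509 with no filter, and -0.14 with adjusted p = 0.233 in the 3 lines). Srebf1, which encodes the SREBP of fatty acid synthesis and is an LXR target, was at 145, 160.1 and 227 TPM in control and at 98.6, 137 and 178 TPM with TGFβ. Its change was -0.29 ± 0.07 (adjusted p = 0.00629), with 6 of 7 lines lower. Scap, the carrier of the SREBPs, was at 43.2, 46.4 and 57.1 TPM in control and at 40.03, 46.8 and 50.3 TPM with TGFβ, and its change of -0.02 (95% interval -0.14 to 0.09, adjusted p = 0.714) was not called.

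Among the 4 genes of transport and storage, 1 fell. Stard4, a soluble carrier of sterol that SREBP drives, was at 76.4, 108 and 154 TPM in control and at 55, 67.4 and 131 TPM with TGFβ. It was lower in 7 of 7 lines and changed by -0.41 ± 0.08 (adjusted p = 0.00251). Npc2, a lysosomal protein that hands cholesterol to NPC1, was at 211, 239 and 301 TPM in control and at 161, 264 and 392 TPM with TGFβ. Its change was 0.06 (95% interval -0.11 to 0.24), with lines on either side of 0. Npc1 changed by 0.04 (95% interval -0.09 to 0.16), and Soat1, which esterifies cholesterol for storage, by -0.07 (95% interval -0.26 to 0.12).

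On the LXR side, Mylip, a ubiquitin ligase for lipoprotein receptors, fell. It was at 32.4, 34.9 and 54.4 TPM in control and at 19.8, 27.6 and 34.9 TPM in TGFβ libraries, and was lower in all 7 lines. Its change was -0.62 ± 0.13 (adjusted p = 0.00402), from -0.12 in the line labelled WT-CREB to -1.38 in KCREB. Nr1h2, the broadly expressed LXR, was at 68.7, 80.9 and 114 TPM in control and at 68.3, 81.1 and 110.4 TPM with TGFβ, with a change of -0.07 (95% interval -0.17 to 0.03). The level of Nr1h2 hardly differed between the groups.

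The other LXR, Nr1h3, was at 0.00, 0.262 and 0.749 TPM in control and at 0.172, 0.389 and 1.20 TPM with TGFβ. The efflux pumps were lower still. Abca1 was listed at 0.141 TPM at most in control and 0.059 TPM at most with TGFβ, and Abcg1 at 0.217 and 0.468 TPM at most. Values this low were not tested, so the cholesterol efflux arm of LXR could not be compared here.

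The SREBP-driven and LXR-driven members did not separate in direction. Of 21 SREBP-driven members, 19 fell, with a median of -0.42 and a range of -0.91 to -0.22. The 2 tested LXR-driven members, Mylip and Srebf1, both fell, with a median of -0.45. Of the 7 tested members driven by neither, 1 fell (Insig2), with a median of -0.05. With 2 tested genes on the LXR side, the medians are given side by side as a description, with no test.

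**Figure D3:**
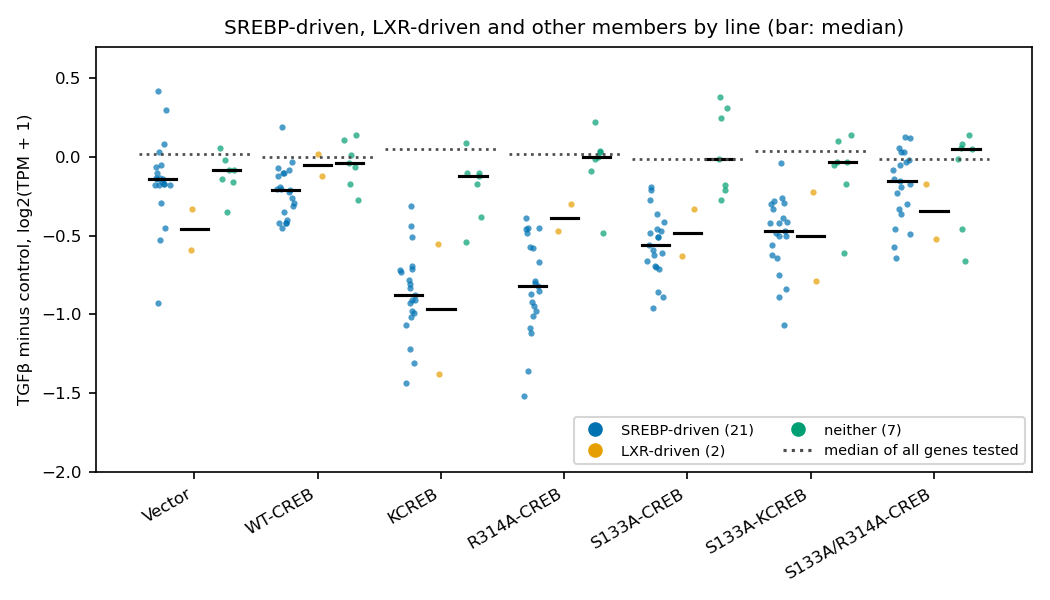
TGFβ minus control on the log2(TPM + 1) scale (vertical) in each of the 7 lines, with 1 point per member, for SREBP-driven, LXR-driven and other members. Black bars are medians and dotted lines the median of all genes tested. The SREBP-driven medians run from -0.88 in KCREB to -0.14 in Vector, and those of the members driven by neither lie within 0.12 of 0 in each line.

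The lines differed in the size of the fall. The median change of the 21 SREBP-driven members was -0.88 in the line labelled KCREB and -0.82 in R314A-CREB. It was -0.56 in S133A-CREB and -0.47 in S133A-KCREB. It was -0.21 in WT-CREB, -0.15 in S133A/R314A-CREB and -0.14 in Vector, beside medians over all genes of -0.01 to 0.05. Each line has 1 library per treatment, so these differences between lines have no test.

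Members lower by at least 1.5-fold with TGFβ numbered 19 of 30 in the line labelled KCREB, where 10.7% of all genes tested were. They numbered 14 in R314A-CREB (8.72% of all genes), 11 in S133A-CREB (6.2%) and 8 in S133A-KCREB (7.88%). In Vector there were 2 (8.97%), in S133A/R314A-CREB 2 (9.14%) and in WT-CREB 0 (3.12%). No member was higher by that fold in any line. The lowest single change was that of Lss in R314A-CREB, -1.52, from 229 to 79.4 TPM.

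**Figure D4:**
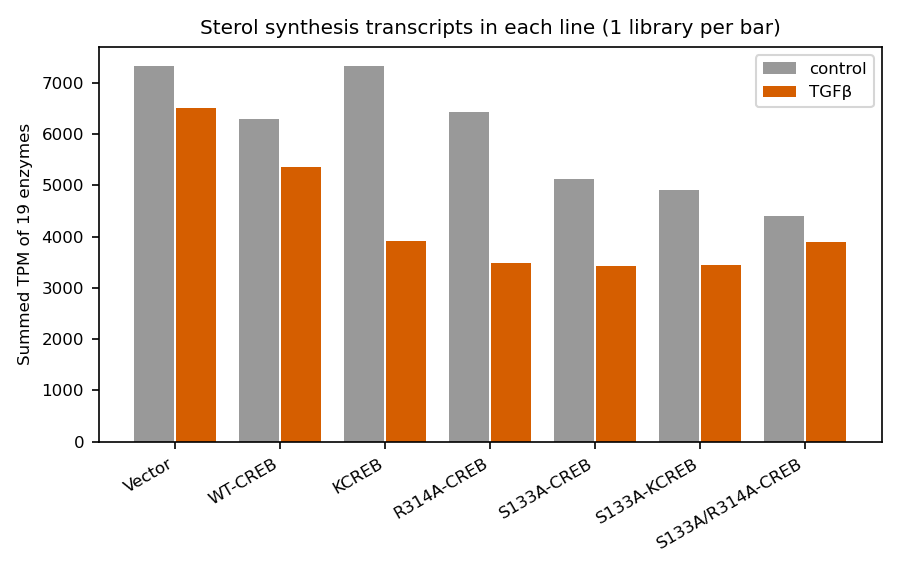
Summed TPM of the 19 synthesis enzymes (vertical, from 0) in the control and TGFβ library of each line, with 1 library per bar. The TGFβ bar is lower in each of the 7 lines, by 11% in Vector to 46.6% in KCREB.

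Summed over the 19 synthesis enzymes, the level was 5972 ± 1177 TPM (SD, n = 7 lines) in control libraries and 4288 ± 1189 TPM in TGFβ libraries. Abundant genes weigh most in the sum, with control means of 1200 TPM for Fdps, 769.8 TPM for Hmgcs1 and 639.6 TPM for Msmo1. The sum was lower with TGFβ in each line. It went from 7331 to 3914 TPM in the line labelled KCREB, from 6439 to 3479 TPM in R314A-CREB, and from 7319 to 6514 TPM in Vector. The control sums of the lines labelled S133A were 4405, 4902 and 5116 TPM, all below the 6294, 6439 and 7331 TPM of the CREB lines without S133A. With TGFβ the same lines were at 3887, 3446 and 3429 TPM and at 5349, 3479 and 3914 TPM, which overlap. The sums were not tested.

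Since Creb1 went against 4 labels, the TGFβ fit was repeated in Vector and the 2 CREB lines with more Creb1 than Vector, a choice made after the data were seen. There 13 of 30 members fell and 0 rose, where 14% of all genes tested fell. The 9 that lost their call were Acat2, Idi1, Fdps, Cyp51, Tm7sf2, Nsdhl, Hsd17b7, Insig1 and Srebf2. With no filter on low genes, 8 lost theirs (Pmvk, Mvd, Idi1, Cyp51, Tm7sf2, Hsd17b7, Insig1 and Srebf2), with adjusted p from 0.0509 to 0.11. The median of the SREBP-driven members was -0.51 in the 3 lines. The levels of mitochondrially encoded genes (5.59% to 10.8% of TPM) also differed between libraries. With those genes left out of the scaling, the median was -0.43 and each of the 30 members kept its call.

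The comparison of lines labelled S133A with lines that keep S133 asks whether loss of the phosphorylated serine goes with other levels of the pathway. No member was called (0 of 30, smallest adjusted p = 0.809), as was 0.0% of all genes tested, in a fit on the means of 3 lines against 3. At an unadjusted p under 0.05, limma gave 261 genes lower and 492 higher. By size, 19 of the 21 SREBP-driven members were lower in the S133A lines, with a median difference of -0.36, beside 0.01 over all genes. Of the 12927 genes tested, 6245 were lower. The members driven by neither had a median of 0.16, and Srebf2 itself differed by 0.07 ± 0.13. As Creb1 goes against 4 of these 6 labels, within the limit given above on what it counts, the direction is that of lines labelled S133A.

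The member with the smallest p was Pmvk. In control libraries of the lines labelled S133A it was at 143, 89.6 and 78.3 TPM, against 166, 231 and 152 TPM in their partners without S133A. With TGFβ it was at 99.6, 63.2 and 75.4 TPM against 163, 117 and 102 TPM. The groups were apart in both treatments, and the difference was -0.75 ± 0.17 (unadjusted p = 0.00621, adjusted p = 0.809, limma).

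Tm7sf2 was at 51.0, 47.6 and 20.6 TPM in control libraries of the S133A lines, against 58.5, 157 and 83.6 TPM. With TGFβ it was at 34.2, 33.4 and 22.5 TPM against 55.5, 57.5 and 45.1 TPM. It too was apart in both treatments, with a difference of -1.05 ± 0.23 (unadjusted p = 0.00637, adjusted p = 0.809, limma). Fdps was at 1058, 681 and 849 TPM in control libraries, against 1302, 1514 and 1392 TPM. With TGFβ its groups overlapped, at 649, 488 and 743 TPM against 1139, 805 and 735 TPM, and its difference was -0.61 ± 0.16 (unadjusted p = 0.0135, adjusted p = 0.809, limma).

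Lower line means without overlap were found for 9 members, against 5.19% of all genes tested, and higher ones for 1 (Nr1h2), against 6.12%. In the control libraries alone 11 members lay lower without overlap, against 3.95% of all genes, and 1 higher (Nr1h2), against 5.68%. In the TGFβ libraries alone 2 lay lower, Pmvk and Tm7sf2, against 5.91%, and 2 higher, Dhcr7 and Scap, against 5.82%. At an unadjusted p under 0.05, 7 members were lower, against 2.02% of all genes, and 1 was higher (Soat1, 0.42 ± 0.13), against 3.81%. None of these 8 passed the adjustment.

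**Figure D5:**
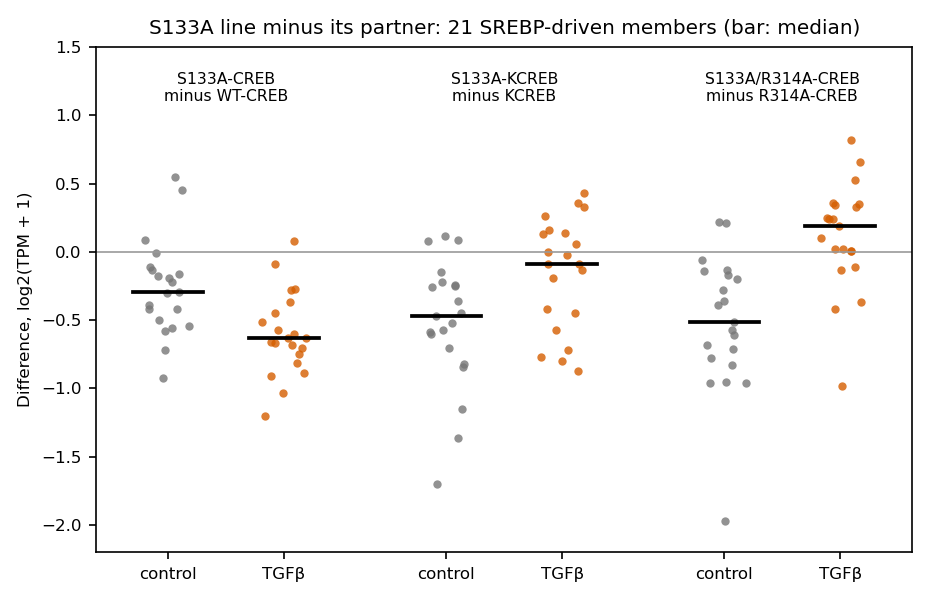
Difference between each line labelled S133A and its partner of the same CREB form without S133A (vertical, log2(TPM + 1)) for the 21 SREBP-driven members, in control and TGFβ libraries. Bars are medians. In control libraries all 3 medians lie below 0, and with TGFβ they run from -0.63 to 0.19.

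In the control libraries, the pairs of lines differed in the same direction by their medians. SREBP-driven members were lower in S133A-CREB than in WT-CREB for 18 of 21, in S133A-KCREB than in KCREB for 18, and in S133A/R314A-CREB than in R314A-CREB for 19. The medians were -0.29, -0.47 and -0.51, beside 0.09, -0.01 and -0.02 over all genes tested. In the TGFβ libraries the counts were 20, 13 and 5 of 21. The medians there were -0.63, -0.09 and 0.19, beside 0.06, -0.02 and -0.04 over all genes tested. The last pair is thus higher in the S133A line for 16 members after TGFβ, with Dhcr7 at 0.82, while Tm7sf2 remained lower at -0.98. Each pair has 1 library per side, so the pairs are not tested singly. Members are not replicates of a line, so the counts are a description only.

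Whether the change with TGFβ differed between lines labelled S133A and the others was tested by an interaction, and no member was called (0 of 30, smallest adjusted p = 0.999), as was 0.0% of all genes. At an unadjusted p under 0.05 there were 0 members, against 3.68% of all genes tested. The 3 members with the smallest p were Npc2, Sc5d and Mvd. The mean change of Npc2 was 0.22 in S133A lines and -0.07 in the others, a difference of 0.30 (95% interval -0.03 to 0.62, unadjusted p = 0.0676, limma). In the line labelled S133A-CREB, then S133A-KCREB, then S133A/R314A-CREB, Npc2 went from 300 to 392, from 247 to 273 and from 239 to 264 TPM. In WT-CREB, KCREB and R314A-CREB it went from 301 to 331, from 211 to 161 and from 233 to 238 TPM, so KCREB was the one CREB line in which it went down.

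Sc5d, in the same order, went from 311 to 272, from 162 to 132 and from 222 to 243 TPM in the S133A lines, and from 353 to 329.6, from 233 to 141 and from 270.0 to 193 TPM in the others. The difference was 0.32 (95% interval -0.14 to 0.77, unadjusted p = 0.133, limma). Mvd went from 158 to 123, from 144 to 107 and from 150 to 157 TPM in the S133A lines, and from 207 to 190.3, from 256 to 144 and from 214 to 124 TPM in the others. The difference was 0.34 (95% interval -0.26 to 0.95, unadjusted p = 0.205, limma), and of the 6 lines S133A/R314A-CREB alone did not go down for either gene. Of 21 SREBP-driven members 20 had a positive difference, that is a smaller mean fall in the S133A lines, with a median of 0.23 beside -0.02 over all genes. Of the 12927 genes tested, 5823 had a positive difference. Members are not replicates, so the count is a description. The intervals are wide, since 6 lines enter this fit.

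Neighbouring pathways were read with TGFβ in the same fit, where 21.4% of all genes tested fell and 24.1% rose, with a median of 0.02. Of 20 genes listed for SREBP1, of fatty acid synthesis and related lipid synthesis, 10 fell and 1 rose, with a median of -0.17. Acss2, which makes acetyl-CoA from acetate, changed by -1.27 ± 0.16, from a mean of 64.5 to 25.7 TPM. Scd1, a desaturase, changed by -0.68, Pcyt2 of phosphatidylethanolamine synthesis by -0.79, and the malic enzyme Me1 by -0.27. The other 9 genes of this list were not called, among them Acaca at -0.01, Fasn at -0.10, Fads1 at -0.07 and Fads2 at 0.18. The isoprenoid branch, which leaves the pathway after Fdps, had 2 of 12 lower and 6 higher, with a median of 0.10. There Coq2 of ubiquinone synthesis changed by -0.44 and the farnesyltransferase subunit Fnta by -0.26, while the prelamin protease Zmpste24 changed by 0.25 and the methyltransferase Icmt by 0.21.

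Against the same shares over all genes (21.4% fell and 24.1% rose), 1 of 10 genes of SREBP processing and sterol-regulated degradation fell and 1 rose. These were Erlin2, at -0.35, and the site-2 protease gene Mbtps2, at 0.21, and Ufd1 and Mbtps1 gave 0.06 and -0.07 without a call. Of 5 tested other LXR targets, 4 fell and 1 rose. Pltp, which transfers phospholipid, changed by -0.95 ± 0.11, Lpcat3 by -0.36 and Abca2 by -0.34, whereas Arl4c changed by 0.74 ± 0.16. Of 13 tested genes of sterol transport and ester hydrolysis, 5 fell and 5 rose, with a median of -0.04. Nceh1, a cholesteryl ester hydrolase, changed by -0.53, Gramd1b by -0.29, Osbpl2 by -0.26 and Stard3 by 0.25.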

How the data were processed

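RNA was sequenced from 14 cultures, 2 per line of 7 lines. The submitters' processing notes list StringTie 2.0.4, STAR 2.7.6a, edgeR and the genome build GRCm39, without saying what each was used for. Per the file headers, the deposited tables hold TPM, FPKM and coverage per gene identifier. TPM and FPKM were used as deposited by the authors, and the coverage signal deposited by the authors served only as a guide to depth. Read counts are not among these values, and neither a count model nor counting intervals were used. Lines of a table with the same gene identifier were summed.

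Values were taken as log2(TPM + 1), a scale that understates changes of low genes, for genes whose mean reached 1 TPM. The moderated linear model of limma 3.58.1 (R 4.3.3), with its variance following intensity, was fitted over all of them, with Benjamini-Hochberg adjustment over all, a two-sided threshold of 0.05, and the line as a block for TGFβ. S133A was fitted on the means, and its interaction on the differences, of the 6 CREB lines with a term for the CREB form. Replicates are lines. The labels do not say that cultures were grown apart, so p-values measure the spread between these lines. Per-library values were given for the members with the lowest and highest change of each role, the regulators and the LXR-driven genes, and for the 3 members with the smallest p for S133A and for the interaction. Of the neighbouring lists up to 4 genes with the smallest p were named. The members and lists were chosen with earlier results of these data known.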

Additional observations from a re-analysis of the deposited data

Results flagged for a closer look

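In 4 members the change with TGFβ of 1 line stood apart from the other 6 by Dixon's test at the 95% level, among 30 members tested. Chance alone flags about 1 in 20 such sets. Insig1 changed by 0.42 in the line labelled Vector, where the next highest line was at -0.44 and the lowest at -0.95. Hsd17b7 changed by -0.99 in the line labelled KCREB, with the next line at -0.45. Stard4 changed by -0.88 in the same line, with the next at -0.47. Npc1 changed by 0.31 in the line labelled S133A-CREB, with the next at 0.06.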

How the results depend on the processing

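Of the 22 members called with TGFβ, 7 kept call and direction under all alternatives run (Hmgcs1, Mvk, Fdft1, Sqle, Lss, Insig2 and Mylip), and 14 did so apart from the fit with no line block and the fit of 3 lines described next. The count was 14 of 33 with no filter on low genes, where 8.56% of all genes fell, 7 with no line block, where 4.01% did, and 13 in Vector and the 2 CREB lines with more Creb1 than Vector, a smaller sample of lines, where 14% did. Without each line in turn it ran from 19 to 23. The median of LXR-driven members was -0.16 with no filter, where Abca1 and Abcg1 enter. Without each line in turn, Scap ran from -0.05 to 0.001 and Npc1 from -0.01 to 0.06, with the sign turned without the line labelled S133A-CREB. In the 3 lines, Npc1 was at -0.02 and Npc2 at -0.09. None of these signs belongs to a called value, and the cause was not tested. No alternative called a member for S133A or for the interaction. Over all genes, 28 were called for S133A when the 12 libraries entered with a random effect of line, and 4 without the term for the CREB form. No replicate numbers are given in the labels. The pairing is that of the line, whose name ties its 2 libraries. The depth of a library is not recorded, so a floor for Abca1, Abcg1 and Nr1h3 cannot be given.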

Other observations

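In each CREB line the SREBP-driven members lay below the line labelled Vector by their median, and by more in TGFβ than in control libraries. In control libraries the median difference of the 21 SREBP-driven members from Vector was -0.04 in KCREB, -0.12 in WT-CREB, -0.18 in R314A-CREB, -0.44 in S133A-KCREB, -0.48 in S133A-CREB and -0.67 in S133A/R314A-CREB. In TGFβ libraries it was -0.71, -0.21, -0.84, -0.84, -0.80 and -0.76 in the same order. All of these differences share the same Vector libraries and have 1 library per side, so they carry no test. The medians of the members driven by neither lay between -0.11 and 0.31 in the same comparisons.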
